A study of Rattus norvegicus with 8 samples.

Results

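The GADD45 family comprises 3 paralogous genes, Gadd45a, Gadd45b and Gadd45g, and all 3 were measured in isolated rat hearts, each by a single probe set of an Affymetrix array. They are 3 of the 14217 genes that could be named. The family was selected on a measured value, namely that Gadd45g has the lowest log2 difference between doxorubicin and control hearts of all named genes, so the differences of the members between the 2 groups are given here as a description, without a test. RNA came from 8 excised hearts of male Wistar rats of about 300 g, whose age is not given in the sources used here. Each heart was fed through its aorta in a Langendorff apparatus without recirculation for 2 h, either without drug (control, n = 4) or with 2 µM doxorubicin (n = 4), an anthracycline anticancer drug that poisons topoisomerase II. All hearts of both groups were thus isolated and perfused, and no heart outside the apparatus was included. By the labels, hearts of 1 group are biological replicates.

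GADD45 proteins are small acidic proteins of nucleus and cytoplasm without an enzyme activity of their own. They act by binding others: the mitotic kinase Cdk1 and its cyclin, the replication clamp PCNA, the cell cycle inhibitor p21 and the kinase Map3k4, which passes signals to the p38 and JNK kinases. Their genes are known as quickly induced by stress, Gadd45a mainly through p53 and the integrated stress response, Gadd45b through NF-kB and TGF-beta, and Gadd45g through cytokines and growth factors.

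The sequences before the starts of the genes are shown because the 3 paralogs were all lower together while Gadd45g differed far more than the others. The stretch of Gadd45g is chr17:13530352-13530601 and that of Gadd45a chr4:97486800-97487049, both on the minus strand of GRCr8, and each holds the 250 bases before the RefSeq start of the gene. For Gadd45b the corresponding stretch lies inside the span annotated for the gene, and 30 bases of it are given, at chr7:9430793-9430822 on the minus strand. All are written 5′ to 3′, and capitals mark matches of the motifs spelled out after them.
Gadd45g: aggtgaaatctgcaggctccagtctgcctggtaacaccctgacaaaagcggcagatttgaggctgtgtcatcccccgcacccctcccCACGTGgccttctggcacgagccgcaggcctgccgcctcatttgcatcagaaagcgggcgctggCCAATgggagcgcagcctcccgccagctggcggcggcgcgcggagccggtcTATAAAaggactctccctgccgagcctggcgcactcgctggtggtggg
Gadd45a: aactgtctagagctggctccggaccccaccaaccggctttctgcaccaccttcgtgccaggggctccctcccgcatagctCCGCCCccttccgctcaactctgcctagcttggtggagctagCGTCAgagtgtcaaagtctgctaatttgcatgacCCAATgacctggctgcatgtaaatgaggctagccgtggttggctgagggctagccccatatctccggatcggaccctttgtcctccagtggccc
Gadd45b: tttgtgcctccaCCAATggatGGGCGGtgc

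A CCAAT box stood in the forward direction at a like distance from all 3 starts, 95 to 99 bases before the start of Gadd45g, 90 to 94 before that of Gadd45a and 88 to 92 before that of Gadd45b, which had a further one at 127 to 131. Of 33469 promoter stretches of the same length in the RefSeq table, 34.0% hold CCAAT on either strand. Gadd45g alone of the 3 had TATAAA, at 43 to 48 bases before the start (12.9% of promoters). Gadd45g and Gadd45b each had the E-box CACGTG (5.59%), and Gadd45a had none. The GC box GGGCGG (30.5%) was found 3 times for Gadd45b, once for Gadd45a and not for Gadd45g, and TGACG, the core shared with the CRE, once for Gadd45a (18.2%). A loose NF-kB pattern, not marked in capitals, matched in all 3, at overlapping places in Gadd45a, and in 42.3% of promoters. The full CRE TGACGTCA (1.59%), the AP-1 motif TGANTCA (6.34%), the FOXO motif TGTTTAC (3.21%), the ATF4 composite TGATGNAAT (0.944%) and the EGR motif GCGTGGGCG (0.478%) matched none of the 3 stretches. Both strands were searched, and a match is a description of the letters alone.

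The arrays were alike over all probe sets, with correlations of 0.988 to 0.996 within a group and 0.985 to 0.993 between groups, calculated over probe sets, which do not count as replicates. Defining markers of heart muscle were bright in every heart, and none of the 6 measured (Myh6, Tnnt2, Tnni3, Myl2, Myl3 and Ryr2) differed at a limma adjusted p under 0.05. Their summed intensity was 82233 to 84162 in control and 82273 to 85882 in doxorubicin hearts. Of 5 endothelial markers Tie1 rose, by 0.34 (SE 0.06, limma adjusted p = 0.0148), and the others did not pass. Among all named genes, 0.802% were higher and 2.17% lower at this bound. None of 6 fibroblast, 5 smooth muscle, 7 macrophage, 3 neutrophil, 5 adipocyte or 4 atrial markers passed in limma. At an unadjusted p under 0.05, 1 macrophage marker was higher, where 9.67% of all named genes were. Summed intensities of control and doxorubicin hearts overlapped for each of these lists. They were 8636 to 13626 and 11716 to 15143 for fibroblast markers, and 569 to 752 and 686 to 924 for macrophage markers. For adipocyte markers they were 2522 to 2962 and 2611 to 4726, with the highest sum in doxorubicin heart 4. Neutrophil markers gave 45.6 to 52.4 and 48.4 to 49.6. Their S100a8 lay at 3.64 log2 in control hearts, under the bound of the dimmest 25% of probe sets (4.16 log2). Since RNA of whole hearts was measured, fewer cells of a type and less RNA per cell cannot be told apart.

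Gadd45g, the paralog induced by cytokines, was about an order of magnitude dimmer in doxorubicin hearts than in control hearts. The log2 intensity of Gadd45g was 10.98, 10.67, 10.33 and 10.77 in control hearts 1 to 4 and 7.38, 7.37, 6.68 and 7.59 in doxorubicin hearts 1 to 4. The highest doxorubicin heart lay 2.73 log2 below the lowest control heart, so the groups were far apart. Mean levels were 10.69 ± 0.27 and 7.26 ± 0.40 log2 (SD, n = 4 each), a difference of -3.43 (SE 0.20), or 10.8-fold. Set against the geometric mean of the control hearts, the signal left in the doxorubicin hearts was 6.24% in heart 3 and 11.7% in heart 4, the lowest and the highest of the group. Even the dimmest of these hearts, heart 3, stayed above 4.16 log2, the bound of the dimmest 25% of probe sets.

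Gadd45a, the p53-regulated founder of the family, was 2.16-fold lower in doxorubicin hearts. Its log2 intensity was 11.51, 11.15, 11.26 and 11.44 in control hearts 1 to 4 and 10.22, 10.07, 10.36 and 10.26 in doxorubicin hearts 1 to 4. All doxorubicin hearts lay below all control hearts, with a gap of 0.78 log2. The means were 11.34 ± 0.16 and 10.23 ± 0.12 log2 (SD, n = 4 each), a difference of -1.11 (SE 0.09), which leaves 46.3% of the control signal.

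Gadd45b, the NF-kB-regulated paralog, was 2.06-fold lower in doxorubicin hearts. Its log2 intensity was 9.73, 9.82, 9.79 and 9.90 in control hearts 1 to 4 and 8.71, 8.69, 8.59 and 9.06 in doxorubicin hearts 1 to 4. The control hearts were close together, doxorubicin heart 4 stood above the other doxorubicin hearts, and the groups were separated by 0.67 log2. The means were 9.81 ± 0.07 and 8.76 ± 0.20 log2 (SD, n = 4 each), a difference of -1.04 (SE 0.10), which leaves 48.5% of the control signal.

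**Figure D1:**
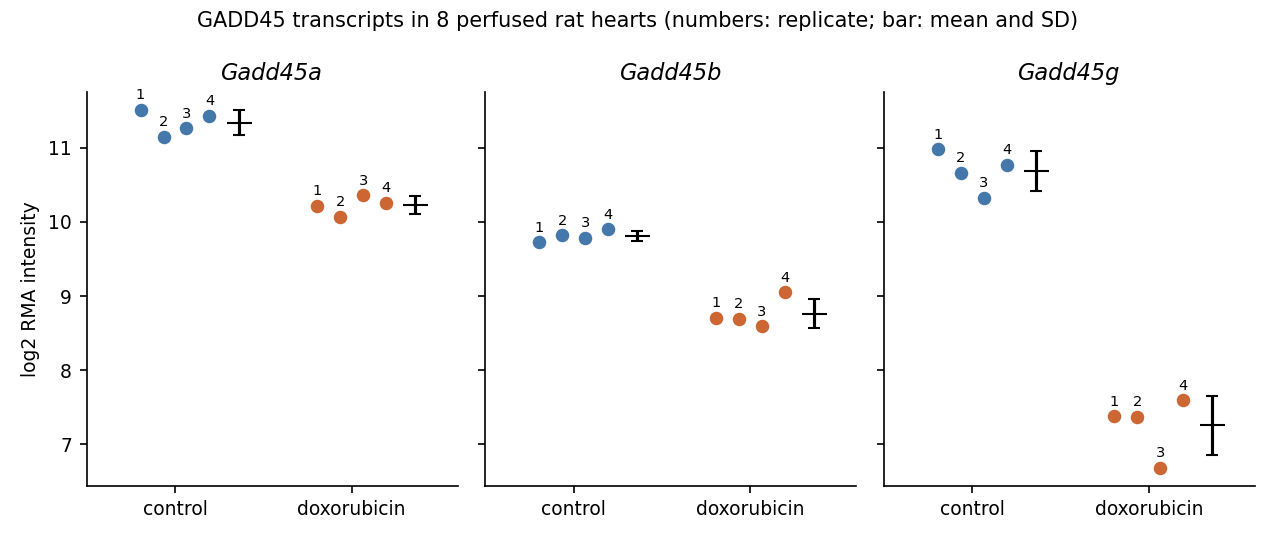
Log2 RMA intensity of Gadd45a, Gadd45b and Gadd45g in each heart (points, numbered by replicate), by group, with the group mean and SD (bar) beside the points, n = 4 each. In each panel the 4 doxorubicin hearts lie below the 4 control hearts, by 0.78 log2 for Gadd45a, 0.67 for Gadd45b and 2.73 for Gadd45g.

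Groups of hearts that do not overlap, with every doxorubicin heart below every control heart, were seen for 3 of 3 members and for 4.69% of the 14217 named genes. At a limma adjusted p under 0.05, over 31042 probe sets, 3 of 3 members were lower, against 2.17% of named genes lower and 0.802% higher. As this contrast chose the family, nothing is read from these counts. In the order of log2 difference from the lowest upward, Gadd45g stood at place 1, Gadd45a at place 68 and Gadd45b at place 78 of 14217. Next after Gadd45g came Klhl40, which stabilizes muscle thin filaments, at -3.33 (SE 0.19). Gadd45a stood between Sox7, an endothelial transcription factor gene (-1.13, SE 0.14), and the histone methyltransferase gene Dot1l (-1.11, SE 0.17; its other probe set 0.03). Gadd45b stood between the glutathione transferase gene Gstm4 (-1.05, SE 0.10) and the kinase gene Sgk1 (-1.04, SE 0.13).

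Within single hearts the 3 paralogs can be compared as changes, each against the control mean of its own probe set, since levels of different probe sets are not on one scale. On this measure Gadd45g minus Gadd45a was -2.19, -2.04, -3.03 and -2.01 log2 in doxorubicin hearts 1 to 4. Gadd45g minus Gadd45b was -2.21, -2.20, -2.79 and -2.34 log2 in the same hearts. In control hearts the same quantity lay between -0.29 and 0.17 for Gadd45g minus Gadd45a and between -0.34 and 0.37 for Gadd45g minus Gadd45b. The mean further difference of Gadd45g was -2.32 (SE 0.26) against Gadd45a and -2.39 (SE 0.20) against Gadd45b, or 4.99-fold and 5.22-fold. Every doxorubicin heart thus showed the larger change in Gadd45g. Gadd45b minus Gadd45a came to 0.07 (SE 0.15), smaller than its SD between hearts of a group (0.19 in control and 0.24 in doxorubicin hearts), and its sign differed between hearts.

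**Figure D2:**
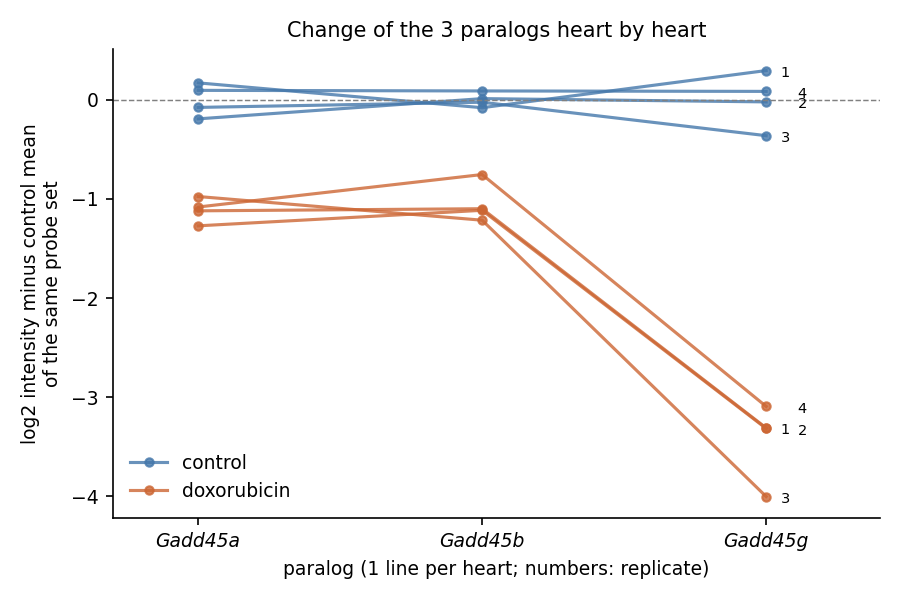
Log2 intensity minus the control mean of the same probe set for the 3 paralogs, 1 line per heart (blue control, orange doxorubicin; numbers give the replicate). The doxorubicin lines cross between Gadd45a and Gadd45b, within -0.75 to -1.27 at both, and drop to between -3.09 and -4.00 at Gadd45g.

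The hearts of a group did not keep 1 order over the paralogs. Doxorubicin heart 3 was the lowest of its group for Gadd45g (-0.57 from the group mean) and for Gadd45b (-0.17) but the highest for Gadd45a (0.14). Doxorubicin heart 4 was the highest for Gadd45g (0.34) and Gadd45b (0.29), and near the mean for Gadd45a (0.03). Among control hearts, heart 1 was the highest for Gadd45g (0.30) and Gadd45a (0.17) and the lowest for Gadd45b (-0.08). Gadd45g also varied most within groups, with a pooled SD of 0.34 log2 against 0.15 for each of the other paralogs, and 97.5% of the named genes had a smaller SD than Gadd45g. The hearts also differed in atrial markers, whose summed intensity was 1214, 10284, 6143 and 1231 in control hearts 1 to 4 and 5940, 3868, 1441 and 20375 in doxorubicin hearts 1 to 4. The control hearts with the higher atrial sums, 2 and 3, were the lower ones for Gadd45g and Gadd45a but lay between hearts 1 and 4 for Gadd45b. For Gadd45g the direction was opposite in doxorubicin hearts, with heart 4 (highest sum) highest and heart 3 (lowest sum) lowest. Gadd45b, without a direction in control hearts, had the same highest and lowest doxorubicin hearts. For Gadd45a, doxorubicin heart 3 was the highest. The part of atrial tissue in these values was not tested.

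The hybridization controls, transcripts added to each labelled sample, were also lower on the doxorubicin arrays, at 9.97 to 10.13 log2 against 10.21 to 10.57 log2 on the control arrays. The levels of the 2 groups did not overlap, so a fit with this level as a covariate separates it only weakly from treatment. In that fit the differences were -3.68 (SE 0.33) for Gadd45g, -1.17 (SE 0.16) for Gadd45a and -1.11 (SE 0.17) for Gadd45b. The SEs in the fit without the covariate were 0.20, 0.09 and 0.10. Without any 1 of the 8 arrays the difference of Gadd45g lay between -3.55 and -3.24, that of Gadd45a between -1.18 and -1.05 and that of Gadd45b between -1.14 and -0.99.

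The genes listed around the family that fell lay in the lists of other gadd and MyD genes, of regulators and of the p38 and JNK cascade, and no gene of the lists of cell cycle and repair, DNA demethylation and nuclear receptors passed the test. Over 6 lists, 76 of 85 genes had a probe set, while 9 are not analysed here. Of the 76, 11 fell, none rose and 65 did not pass at a limma adjusted p under 0.05, against 2.17% lower and 0.802% higher among all named genes. At an unadjusted p under 0.05, 20 of the 76 were lower and 6 higher, beside 7.07% lower and 9.67% higher among all named genes. The lists were chosen with earlier results of these data known. Nothing is therefore read from these counts or from those of the single lists below. In the fit that includes the hybridization controls, 3 of the 11 kept the call (Atf3, Ddit3 and Jun). The limma adjusted p of the other 8 was 0.148 to 0.777. The log2 differences of the 11 were 0.832 to 1.35 times those without the controls in the fit. As the levels of the hybridization controls did not overlap between the groups, that fit separates them only weakly from treatment. The median difference of the 76 was -0.03 log2, and that of all named genes 0.0063.

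The family takes its name from screens for transcripts of growth arrest and DNA damage (gadd) and of myeloid differentiation (MyD), and 6 other genes found in such screens were measured. Of these 3 fell, none rose and 3 did not pass, with a median of -0.50 log2, against 2.17% lower and 0.802% higher among all named genes. At an unadjusted p under 0.05 in limma, all 6 were lower, beside 7.07% of all named genes. Ddit3, or Gadd153, the transcription factor CHOP of the integrated stress response, went from 9.82 ± 0.12 to 8.87 ± 0.10 log2 (SD, n = 4 each), a fall of 0.95 (SE 0.08, limma adjusted p = 0.000189). Junb, an AP-1 subunit gene, fell by 0.84 (SE 0.10, limma adjusted p = 0.00213), and the Toll-like receptor adaptor gene Myd88 by 0.47 (SE 0.09, limma adjusted p = 0.0319). Myd88 lost the call without any 1 of 7 arrays, with adjusted p up to 0.103. Ppp1r15a, or Gadd34, which directs protein phosphatase 1 to the initiation factor eIF2, stood at -0.54 (SE 0.12, limma adjusted p = 0.0653), Irf1 at -0.45 and Mcl1 at -0.29, all without passing.

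Among 24 measured regulators known to act on GADD45 genes, 7 fell, none rose and 17 did not pass, with a median of -0.21 log2. Of all named genes, 2.17% were lower and 0.802% higher at the same bound. At an unadjusted p under 0.05, 11 of the 24 were lower and 1 higher, against 7.07% and 9.67% of all named genes. Atf3, a stress-induced transcription factor, fell by 1.94 (SE 0.13, limma adjusted p = 6.21e-05), from 11.56 to 12.13 log2 in control hearts to between 9.67 and 10.05 log2 in doxorubicin hearts. Myc, which is known to repress Gadd45a, fell by 0.97 (SE 0.12, limma adjusted p = 0.00213). Egr1, a zinc finger factor, fell by 0.80 (SE 0.10), and Atf4, an activator of Gadd45a in amino acid stress, by 0.53 (SE 0.07), each with a limma adjusted p of 0.00318 or less. Pou2f1, the Oct-1 factor, fell by 0.36 (SE 0.06, limma adjusted p = 0.0117), although its doxorubicin mean of 4.09 log2 lay in the range of the dimmest 25% of probe sets, and its difference was -0.20 with 16 added before log2. The NF-kB subunit genes Rela (-0.35, SE 0.07, limma adjusted p = 0.0322) and Nfkb1 (-0.35, SE 0.08, limma adjusted p = 0.0461) also fell, but Rela lost the call without any 1 of 6 arrays (adjusted p up to 0.0985) and Nfkb1 without any 1 of 7 (up to 0.15) and with median centring (0.0511), and both lost it with an intensity trend (0.0685 and 0.0686). Foxo3 stood at -0.46 with other probe sets near 0 (-0.09 and -0.0040), Cebpb at -0.69 (SE 0.28), Smad3 at -0.29, Stat3 at -0.24, Foxo1 at -0.03 and Smad4 at -0.0070, none of which passed.

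In the kinase cascade that GADD45 proteins enter, 1 of 14 measured genes fell, none rose and 13 did not pass, with a median of 0.02 log2. Of all named genes, 2.17% were lower and 0.802% higher. The 1 that fell encodes a target at the end of the cascade, Jun, at -1.67 (SE 0.12, limma adjusted p = 0.00013), while further Jun probe sets gave -2.38 and -1.58. Map3k4, the kinase that GADD45 proteins bind and activate, lay at 7.60 ± 0.13 log2 in control and 7.59 ± 0.15 log2 in doxorubicin hearts (SD, n = 4 each), a difference of -0.01 (SE 0.09). The p38 kinase genes Mapk12 (0.33, SE 0.09, limma adjusted p = 0.136) and Mapk14 (0.19, SE 0.08) and the JNK2 gene Mapk9 (0.36, SE 0.12) had positive differences that did not pass. With Mapkapk2 (0.16), a kinase downstream of p38, these were the 4 genes of the 14 that were higher at an unadjusted p under 0.05, where 9.67% of all named genes were, and Jun was the 1 that was lower.

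None of 13 measured cell cycle and repair genes passed in limma (none lower and 1 higher at an unadjusted p under 0.05, where 7.07% of all named genes were lower and 9.67% higher), with a median of 0.05 log2. Pcna, the replication clamp, stood highest at 0.23 (SE 0.06, limma adjusted p = 0.0805), lying between 10.82 and 10.91 log2 without drug and between 11.02 and 11.16 log2 with it. Xpc, a sensor of damaged DNA, stood at 0.18 (SE 0.08). Cdkn1a, which encodes p21, stood at 0.03 (SE 0.11) and its second probe set at 0.48 (SE 0.13, limma adjusted p = 0.119). The mitotic kinase gene Cdk1 stood at 0.16 (SE 0.09) and the cyclin gene Ccnb1 at -0.0098 (SE 0.07).

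None of 11 genes of active DNA demethylation, in which GADD45 proteins have been placed as adaptors, passed in limma (2 lower and none higher at an unadjusted p under 0.05, beside the same 7.07% and 9.67%). Their median was -0.0090 log2, with the methylcytosine dioxygenase gene Tet2 at -0.31 (SE 0.09, limma adjusted p = 0.137), Ing1 at -0.23 (SE 0.09) and the thymine glycosylase gene Tdg at -0.13. None of 8 genes for nuclear receptors and for Gadd45gip1, a mitochondrial ribosome protein known to bind GADD45 proteins, passed, and none was lower or higher at an unadjusted p under 0.05. Rxra stood at -0.12 (SE 0.07), Rara at -0.15 (SE 0.09) and Gadd45gip1 at -0.02 (SE 0.19).

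**Figure D3:**
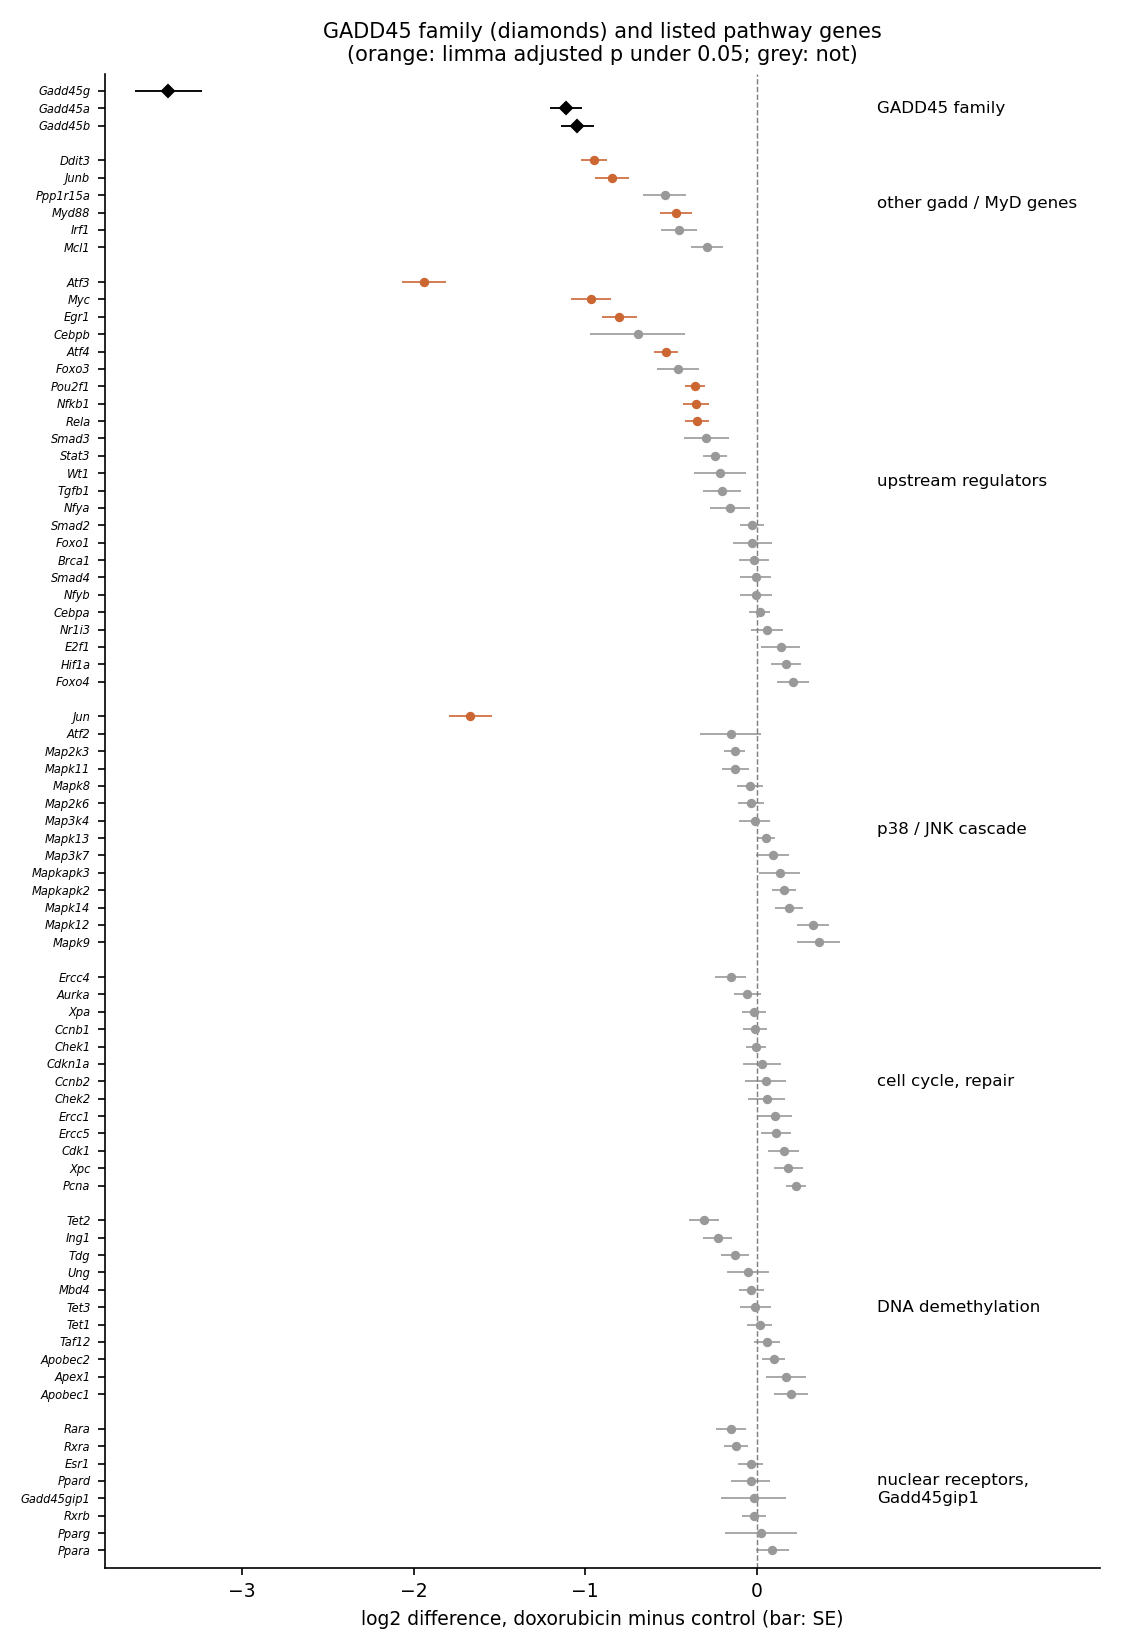
Log2 difference, doxorubicin minus control, with its SE, for the 3 GADD45 genes (diamonds) and the 76 measured genes of the 6 lists (orange, limma adjusted p under 0.05; grey, not). The 11 genes that fell lie in the upper 3 lists, and the 32 genes of the lower 3 lists stand between -0.31 and 0.23.

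The genes whose profile over the 8 hearts was most like that of each paralog were found by the root mean square distance between profiles centred on their own means. The 8 points fall into the 2 groups, so the distance mainly reflects the size of the group difference, and it carries no test. Nearest to Gadd45g was Klhl40, at a distance of 0.32 log2, followed by the nuclear receptor gene Nr4a3 (0.40), the histone gene H4cl1 (0.44), whose doxorubicin hearts lay at 3.93 to 4.06 log2 and so under the bound of the dimmest 25%, and the LIM-domain gene Lmcd1 (0.49). The profile of Gadd45g itself has a root mean square of 1.74 log2. Of 3 Nr4a3 probe sets, 1 stood at 0.31, against -2.78 and -2.62 for the others.

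Nearest to Gadd45a were the interleukin-1 receptor gene Il1r1 (0.11, with other probe sets at -0.54 and -0.56 against -1.07), Ddit3 (0.12), the actin-nucleation gene Arpc4 (0.12) and Sgk1 (0.13). Ddit3, another gadd gene, shared with Gadd45a the lowest doxorubicin heart, heart 2, and the highest, heart 3. Both were also highest in control heart 1, but the lowest control heart was heart 2 for Gadd45a and heart 3 for Ddit3. Nearest to Gadd45b, at a distance of 0.07 log2, was Gclc, which encodes the catalytic subunit of the first enzyme of glutathione synthesis, which differed by -1.05 (SE 0.09), and whose second probe set was called lower as well (limma adjusted p = 0.00124). Gclc had its lowest doxorubicin heart in heart 3 and its highest in heart 4, as Gadd45b did. Among control hearts, Gclc was lowest in heart 3 and highest in heart 2, and Gadd45b lowest in heart 1 and highest in heart 4. As these genes were picked for nearness over the same hearts, nothing is read from a shared order. Rassf1 (0.11), Adamts9 (0.12) and Rhob (0.13) followed, though other probe sets of Rassf1 stood at -0.17 and -0.46 and that of Adamts9 at -0.15, against -1.06 and -0.97 for those used.

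**Figure D4:**
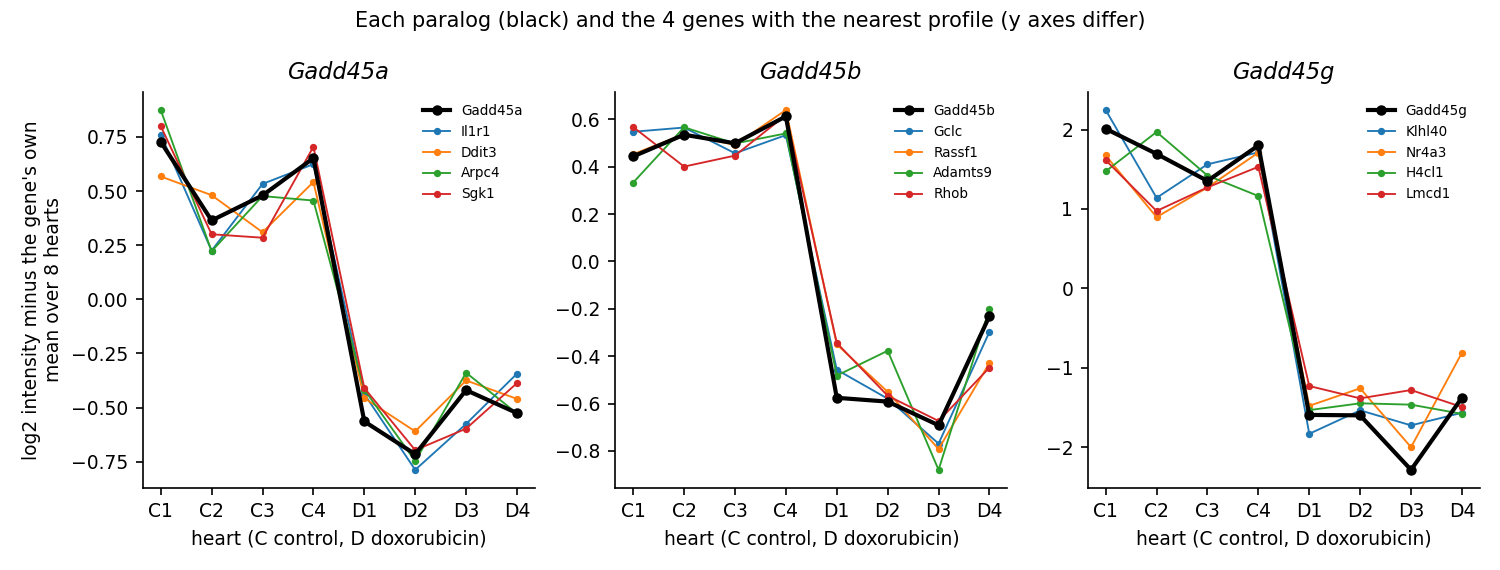
Log2 intensity minus the gene's own mean over the 8 hearts, for each paralog (black) and the 4 genes with the nearest profile, by heart (C control, D doxorubicin; the y axes differ between panels). The nearest distance is 0.11 log2 for Gadd45a, 0.07 for Gadd45b and 0.32 for Gadd45g, whose doxorubicin heart 3 lies below its neighbours.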

How the data were processed

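The deposited intensity values were made by the authors with RMA, a method that corrects background, normalizes arrays together and summarizes probes, per the submitters' processing notes; its version is not given in the sources used here. The intensity values were linear, with array medians of 29.9 to 31.0, so log2 was taken. Of 31099 deposited probe sets, 57 controls were left out. Symbols came from the platform annotation, updated through RefSeq (GRCr8) for names; each of 14217 genes was represented by its brightest probe set. Groups were compared in limma 3.58.1 (R 4.3.3, lmFit and eBayes, 8 arrays, no covariate), with two-sided Benjamini-Hochberg adjustment over 31042 probe sets and calls under 0.05. The SE is that of limma, except for differences between paralogs, where it is that of 2 groups of 4 hearts. The script was tested on simulated data. Promoter stretches came from RefSeq; all 3 members matched. The number of arrays limits the precision, and RMA would hide a shift shared by most transcripts.

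The members and gene lists were chosen with earlier results of these data known. Named were the members, called list genes or those with the smallest p, the 4 genes with the nearest profiles and the neighbours in the order of differences; other list genes were named after their values were seen. Alternatives were another normalization, an offset, weights, filters, eBayes options, a covariate, a replicate block, the mean of probe sets and each array left out. Python 3.11.15 with matplotlib 3.10.9 drew the figures.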

Additional observations from a re-analysis of the deposited data

Results flagged for a closer look

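In 28 groups of 4 hearts, for the 3 GADD45 genes and the 11 list genes that fell, 2 held a heart whose gap to the nearest other heart took most of the range of its group. Chance gives such a heart in about 1 in 20 groups. Egr1 stood at 10.87 log2 in doxorubicin heart 4, and the other 3 doxorubicin hearts lay at 10.95 to 10.96. Rela stood at 7.97 log2 in control heart 1 against 7.76 to 7.77 in the other control hearts. No heart passed this limit for Gadd45a, Gadd45b or Gadd45g. Without reaching it, Gadd45g stood at 6.68 log2 in doxorubicin heart 3, against 7.37 to 7.59 in the other doxorubicin hearts. Gadd45b stood at 9.06 log2 in doxorubicin heart 4, against 8.59 to 8.71 in the other doxorubicin hearts.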

How the results depend on the processing

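The differences of Gadd45a, Gadd45b and Gadd45g kept their direction under each of 15 alternatives and moved by less than the SD between hearts, within -1.18 to -1.05, -1.14 to -0.99 and -3.68 to -3.24. The replicate block and the mean of probe sets could not move them. Each group holds each replicate number once, and each paralog has 1 probe set. With the hybridization controls as a covariate, 3 list genes were called instead of 11 (Atf3, Ddit3 and Jun), and 92 probe sets instead of 687. The log2 differences of the 11 were 0.832 to 1.35 times their values without it. The covariate did not overlap between the groups, so that fit separates it only weakly from treatment. The list count was 8 to 13 without any 1 array and 8 with the replicate number as a block, where Myd88 (adjusted p = 0.0754), Pou2f1 (0.0575), Rela (0.074) and Nfkb1 (0.103) did not pass in limma. Leaving out 1 array gave 397 called probe sets (without doxorubicin 1) to 854 (without control 2), of which 76 and 395 were higher, against 214 of 687 with all arrays. It gave 444 without control 3 and 452 and 435 without doxorubicin 2 and 3, and array weights gave 888. Over all probe sets the replicate numbers showed no pairing of hearts (correlations of deviations 0.06, -0.04, -0.03 and -0.18). The block leaves the members' differences at -1.11, -1.04 and -3.43 by design, so this is no check of them. It changed their SEs, for Gadd45g from 0.20 to 0.10. With 16 added before log2, or without control 2, 1 list gene rose. Each paralog rests on 1 probe set, so no second probe set checks it.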
